A study of Mus musculus with 12 samples.

Results

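The 4 genes described here are the uncoupling protein genes Ucp1, Ucp2 and Ucp3 and the deiodinase gene Dio2. They were taken by gene name from a table of 61210 genes, in which each name has a single row, and all 4 passed the filter on low counts that left 16737 genes for testing. The values come from total RNA-seq of brown adipose tissue (iBAT) of wild type C57BL/6N mice that were 20 weeks old, with 3 libraries in each of 4 groups. The mice of 2 groups received a control diet (NCD), and those of the other two received a high-fat diet (HFD) for 12 weeks from the age of 8 weeks. On each diet, one group was housed at 22 °C and the other spent the last 24 h at 4 °C. No group carried a transgene or a deletion, and iBAT stands for interscapular brown fat in the methods and for inguinal in the design text. The comparisons ask how a day of cold and a long period of HFD, alone and together, act on the transcripts of these genes.

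UCP1 is the carrier of the inner mitochondrial membrane that lets protons return to the matrix without making ATP, and it is the protein through which brown adipocytes turn fuel into heat. Noradrenaline from sympathetic nerves acts on β-adrenergic receptors and, through cAMP, raises both the release of fatty acids, which open UCP1, and the transcription of Ucp1. DIO2 sits in the endoplasmic reticulum and converts the prohormone T4 into T3, the form that binds thyroid hormone receptors, and it is itself induced by cAMP in brown fat. UCP2 and UCP3 are close relatives of UCP1 with far less certain roles in heat production. UCP2 is widely expressed, also in immune cells, and UCP3 is found mainly in skeletal muscle, heart and brown fat, where it follows the use of fatty acids.

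On GRCm38, as annotated in GENCODE M21, Ucp1 (ENSMUSG00000031710.4) lies on the plus strand at chr8:83290352-83298452. Ucp3 (ENSMUSG00000032942.14) at chr7:100472990-100486432 and Ucp2 (ENSMUSG00000033685.13) at chr7:100493337-100502020 stand one behind the other on the plus strand, 6905 bases apart. Dio2 (ENSMUSG00000007682.6) lies on the minus strand at chr12:90724552-90738438. The coding sequences of Ucp2 and Ucp3 were identical at 75.27% of aligned bases, against 61.93% for Ucp1 and Ucp2 and 63.15% for Ucp1 and Ucp3. No stretch of 31 bases, a common word length in the quantification of reads, was shared by the transcripts of any pair of members.

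Cold called Ucp1 and Dio2 but not Ucp2 and Ucp3, as described further on, and the 250 bases upstream of each RefSeq transcription start are therefore shown for all 4 genes (RefSeq on GRCm38.p6, 5′ to 3′ on the strand of the gene). Capitals mark the core of a cAMP response element, TGACG or its reverse complement CGTCA, and the hexamer of nuclear receptor sites, AGGTCA or its reverse complement TGACCT.
Ucp1, chr8:83290098-83290347, plus strand: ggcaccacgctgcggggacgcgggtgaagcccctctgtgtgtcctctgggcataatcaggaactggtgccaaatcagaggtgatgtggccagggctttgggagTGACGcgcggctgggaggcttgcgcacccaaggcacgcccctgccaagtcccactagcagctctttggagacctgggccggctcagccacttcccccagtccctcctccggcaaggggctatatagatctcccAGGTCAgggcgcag
Dio2, chr12:90739039-90739288, minus strand: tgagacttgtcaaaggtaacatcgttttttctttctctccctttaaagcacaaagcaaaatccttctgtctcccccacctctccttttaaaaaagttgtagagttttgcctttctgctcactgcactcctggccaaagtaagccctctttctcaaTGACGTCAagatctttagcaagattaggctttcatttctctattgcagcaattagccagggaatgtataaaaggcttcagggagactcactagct
Ucp3, chr7:100472741-100472990, plus strand: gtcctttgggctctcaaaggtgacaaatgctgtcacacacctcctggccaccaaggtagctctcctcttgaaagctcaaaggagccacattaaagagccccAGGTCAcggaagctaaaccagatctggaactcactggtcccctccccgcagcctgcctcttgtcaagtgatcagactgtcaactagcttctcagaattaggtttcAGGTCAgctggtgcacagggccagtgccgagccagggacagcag
Ucp2, chr7:100493108-100493357, plus strand: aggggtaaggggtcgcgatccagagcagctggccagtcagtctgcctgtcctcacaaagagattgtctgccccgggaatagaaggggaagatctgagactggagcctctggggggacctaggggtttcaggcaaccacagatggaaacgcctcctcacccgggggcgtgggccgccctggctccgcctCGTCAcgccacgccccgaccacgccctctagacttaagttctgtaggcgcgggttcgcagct
The Dio2 window held the full palindrome TGACGTCA, from 95 to 88 bases before the start, which was present in 1.548% of 32817 promoter windows of the same length. The shorter core, searched on both strands, was present in 17.75% of the windows. It was found at 147 bases before the start of Ucp1, at 62 bases before that of Ucp2 and, as part of the palindrome, in Dio2. AGGTCA was found at 14 bases before the start of Ucp1 and at 149 and 44 bases before that of Ucp3, and 14.03% of all windows held it on either strand. TATAAA stood 30 bases before the start of Dio2 and in no other member, and 12.37% of windows held it. Of the remaining letters searched on both strands, GGGCGG (in 32.72% of windows) was found in Ucp2, as CCGCCC at 79 bases before the start, and CCAAT (in 33.83%) in none of the 4. These matches describe letters in a short window and say nothing about binding. The windows do not reach the distal enhancers through which both Ucp1 and Dio2 may be controlled, the RefSeq start of Dio2 lies upstream of the start in GENCODE, and the Ucp2 window reaches a few bases into the gene as annotated in GENCODE.

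DIO2 is a selenoprotein, whose active site carries selenocysteine encoded by TGA, a codon that elsewhere ends translation. The annotated coding region of Dio2 has 267 codons, and TGA was found in frame at codons 130 and 263 before the final stop codon. The 63 bases around the first of them are shown, with the codon in capitals.
Dio2, coding strand around codon 130: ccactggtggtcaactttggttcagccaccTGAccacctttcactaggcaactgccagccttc
The making of DIO2 thus depends on selenocysteine machinery, whose genes are part of the thyroid hormone list described further on.

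The libraries held between 15136861 and 46740702 counts. By the labels, replicates 1 and 2 of every group formed one batch of 8 libraries, with up to 21026727 counts, and replicate 3 of every group formed another of 4, with 34067515 counts or more. All 13 brown adipocyte markers were present in every group. Their summed level was 10106 to 12086 CPM at 22 °C and 14922 to 16962 CPM at 4 °C on NCD, and 8337 to 10410 CPM and 10049 to 11833 CPM on HFD. The largest part of it came from Fabp4, with group means of 4759 to 8765 CPM, which the paper lists among the common adipocyte markers. Of 8 white fat markers, Hoxc9 and Tcf21 had at most 4 counts in any library, but the sum of all 8 was 419 to 594 CPM on NCD at 22 °C, 511 to 826 CPM on NCD at 4 °C, 536 to 1135 CPM on HFD at 22 °C and 1136 to 1429 CPM on HFD at 4 °C. Most of it came from Npr3, with group means of 263 to 1197 CPM, and Lep, with 24.97 to 201 CPM. With cold, Npr3 went from 263 to 563 CPM on NCD and from 599 to 1197 CPM on HFD. Lep went the other way, from 201 to 44.5 CPM on NCD and from 190 to 24.97 CPM on HFD. The summed level of 14 skeletal muscle markers ran from 622 to 20304 CPM (counts scaled to a common library total by the TMM method of edgeR). It was highest in replicate 2 of both NCD groups and replicate 3 of both HFD groups, called muscle-rich further on. The sum was 3140 to 19090 CPM at 22 °C and 1338 to 10595 CPM at 4 °C on NCD, and 2141 to 20304 CPM and 622 to 6195 CPM on HFD. The median log2 difference of these markers for cold was -0.99 on NCD and -1.77 on HFD, against -0.01 and -0.04 over all tested genes. None of the 14 was called for cold, against 6.27% and 9.58% of all tested genes. Lymphocyte markers summed to at most 4.90 CPM. The sum of the 6 endothelial markers found in the table was 512 to 627 CPM on NCD at 22 °C, 725 to 808 CPM on NCD at 4 °C, 702 to 958 CPM on HFD at 22 °C and 944 to 1066 CPM on HFD at 4 °C. The sum of 12 macrophage markers was 185 to 229 CPM at 22 °C and 139 to 186 CPM at 4 °C on NCD, and 189 to 268 CPM and 181 to 397 CPM on HFD. Of these 12, HFD at 4 °C called 2 higher and cold on HFD 1, against 4.75% and 9.58% of all tested genes. The brown, white, endothelial and macrophage sums did not overlap between some groups, whereas the muscle sums overlapped between all. No sum was tested. At 22 °C the brown sum was not higher on HFD than on NCD, but single brown markers went both ways. The means of Cox8b, Cox7a1, Plin5, Ppargc1a and Lhx8 were higher on HFD there, and those of the other brown markers were lower. None of the 13 was called in this comparison, against 2.09% of all tested genes. The muscle sum ran lower with cold. The part of these sums in the values of the members was not tested. In whole tissue, fewer cells of a type and less RNA per cell cannot be told apart.

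Ucp1 was the member with by far the highest level, and cold raised it on both diets. On NCD at 22 °C, the 3 libraries held 4804, 3789 and 4016 CPM. On HFD at 22 °C they held 7966, 7105 and 5994 CPM, all above the NCD libraries. In the cold, the NCD libraries held 18809, 15320 and 14942 CPM and the HFD libraries 11625, 15194 and 13150 CPM. The cold groups did not overlap the 22 °C groups, which held for 27.8% of all tested genes on NCD and 30.3% on HFD. The diets did not overlap at 22 °C, as for 25.9% of genes, but did at 4 °C. The means were 4203 ± 533 CPM (SD, n = 3) for NCD and 7022 ± 989 for HFD at 22 °C, and 16357 ± 2132 for NCD and 13323 ± 1791 for HFD at 4 °C. In this order of groups, from NCD at 22 °C over HFD at 22 °C and HFD at 4 °C to NCD at 4 °C, only the cold groups overlapped as neighbours.

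Differences were tested with edgeR's quasi-likelihood test on all 12 libraries with Benjamini-Hochberg adjustment over all tested genes. Calls required an adjusted p below 0.05 together with a log2 difference of more than 0.5 in size. Cold on NCD raised Ucp1 by 1.96 on the log2 scale (SE 0.17, 3.89-fold, adjusted p = 0.000274), which was the 146th highest rise of 16737 genes. Cold on HFD raised it by 0.92 (SE 0.17, 1.90-fold, adjusted p = 0.00656), a call that the 8 libraries of batch 1 alone did not give (0.83, adjusted p = 0.101), nor did the fit without the library of highest muscle marker level in each group (0.83, adjusted p = 0.0773). With it, Dio2 was called in both cold comparisons, so that 2 of the 4 members were called on each diet, against 6.27% of all tested genes on NCD and 9.58% on HFD. HFD at 22 °C raised Ucp1 by 0.74 (SE 0.17, 1.67-fold, adjusted p = 0.0484), the single call among the 4 members there, against 2.09% of all genes. This call lies close to the threshold, and leaving out 1 library ended it for 10 of the 12 libraries, with adjusted p-values of up to 0.163 (without NCD 22 °C replicate 2). It was also lost with the replicate number as a block (0.74, adjusted p = 0.0551), with the block within temperature (0.74, adjusted p = 0.0949) and in batch 1 alone (0.81, adjusted p = 0.204). HFD at 4 °C, where 4.75% of all genes were called, gave -0.30 (SE 0.17, adjusted p = 0.328), with a 95% confidence interval from -0.66 to 0.07.

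The cold effect on Ucp1 was thus smaller on HFD than on NCD, with a difference of -1.04 on the log2 scale (SE 0.24, 95% confidence interval from -1.56 to -0.52), which means a 2.05-fold smaller ratio of cold to 22 °C. The unadjusted p of this interaction was 0.00103. It did not pass adjustment over all genes in edgeR's quasi-likelihood test (adjusted p = 0.475), in which 0 genes passed and 1091 genes, or 6.52%, had an unadjusted p under 0.05. DESeq2's Wald test called 62 genes and gave Ucp1 an adjusted p of 0.00401, and over all alternatives the adjusted p ran from 0.00401 to 0.999. Within batch 1 the log2 difference between cold and 22 °C was 1.99 on NCD and 0.82 on HFD, and within batch 2, with 1 library per group, it was 1.90 and 1.13. Averaged over both diets, cold raised Ucp1 by 1.44 (SE 0.12, adjusted p = 3.48e-05 in edgeR), a comparison that called 12.7% of all genes, and in an exact permutation test within diets with p = 0.005, the smallest two-sided value that its 400 permutations can give. For 3 libraries against 3 alone, an exact permutation test cannot go below 0.1.

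**Figure D1:**
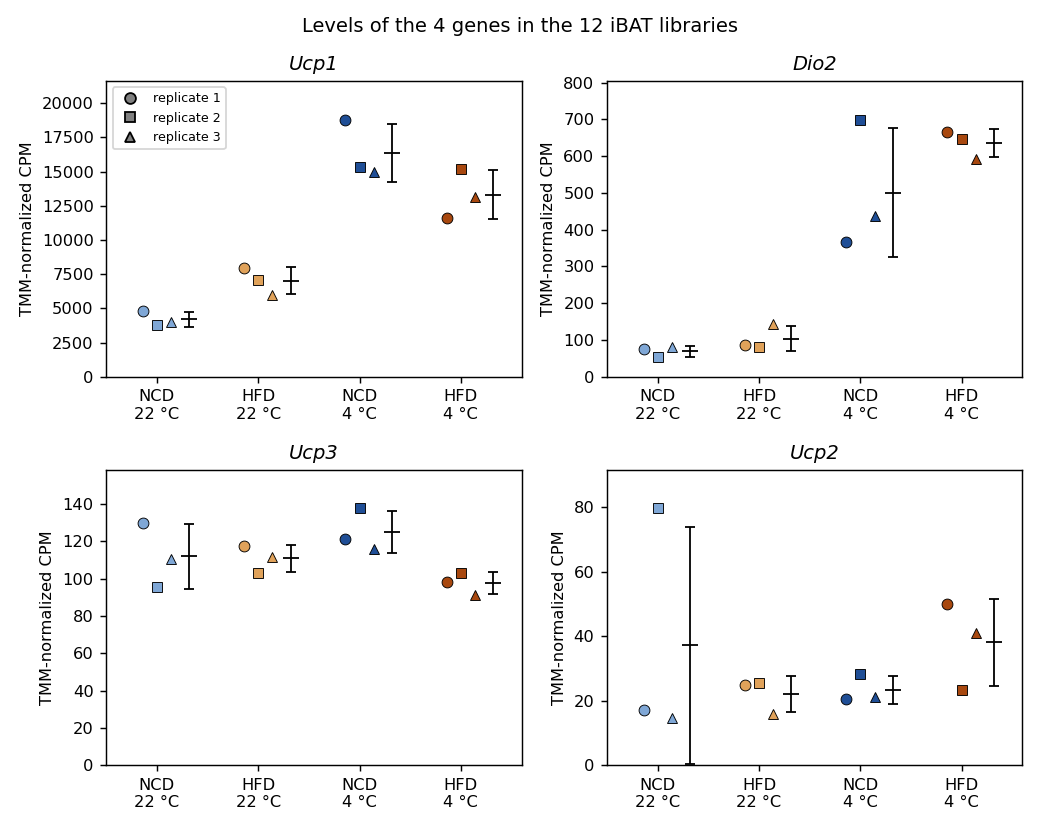
TMM-normalized CPM (y axis, starting at 0) of Ucp1, Dio2, Ucp3 and Ucp2 in the 4 groups (x axis), with 1 point per library, shaped by replicate number, and the mean ± SD of the 3 libraries in black beside them. Ucp1 rises from 4203 to 16357 CPM with cold on NCD and from 7022 to 13323 CPM on HFD, Dio2 rises on both diets, and a single NCD library at 22 °C carries most of the spread of Ucp2.

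Dio2 showed a larger mean cold response in fold than Ucp1, and cold raised it on both diets. At 22 °C the libraries held 74.4, 52.7 and 80.4 CPM on NCD and 85.9, 80.7 and 142 CPM on HFD. At 4 °C they held 365, 699 and 438 CPM on NCD and 666, 648 and 592 CPM on HFD. Every cold library was above every library at 22 °C, and at 22 °C every HFD library was above every NCD library, by as little as 80.7 against 80.4 CPM. Of all tested genes, the cold groups did not overlap those at 22 °C for 27.8% on NCD and 30.3% on HFD, and the diets did not overlap at 22 °C for 25.9%. The cold libraries of the 2 diets overlapped, and those on HFD differed least among themselves (635 ± 38.4 CPM, against 501 ± 176 on NCD, SD, n = 3). The muscle-rich library had the highest Dio2 level of its group on NCD at 4 °C (699 CPM) and on HFD at 22 °C (142 CPM). It had the lowest one on NCD at 22 °C (52.7 CPM) and on HFD at 4 °C (592 CPM). The part of muscle content in the Dio2 values was not tested.

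Cold raised Dio2 by 2.86 on the log2 scale on NCD (SE 0.29, 7.24-fold, adjusted p = 0.000498) and by 2.62 on HFD (SE 0.28, 6.16-fold, adjusted p = 0.000474) in edgeR's quasi-likelihood test. These were the 61st and the 102nd highest rises of 16737 genes. Within batch 1 the log2 difference between cold and 22 °C was 3.01 on NCD and 2.98 on HFD, and within batch 2, with 1 library per group, it was 2.45 and 2.06. Averaged over both diets it was 2.74 (SE 0.20, adjusted p = 1.83e-05 in edgeR), with p = 0.005 in the exact permutation test within diets. The difference between the 2 cold effects was -0.23 (SE 0.38, adjusted p = 0.943), with a 95% confidence interval from -1.06 to 0.60. This interval also holds the value for Ucp1, and a test of whether the interactions of the 2 genes differ was not made. HFD gave a log2 difference of 0.58 at 22 °C (SE 0.27, adjusted p = 0.290) and of 0.34 at 4 °C (SE 0.27, adjusted p = 0.5003). Averaged over both temperatures, in which 7.8% of all genes were called, HFD gave 0.46 (SE 0.19, unadjusted p = 0.0336, adjusted p = 0.132 in edgeR), with p = 0.06 in the exact permutation test within temperatures and p = 0.0417 when only libraries of the same batch were exchanged. With the library of highest muscle marker level left out of each group, HFD at 4 °C gave a log2 difference of 0.71 and passed the threshold (adjusted p = 0.0461).

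Ucp3 varied little across the 4 groups. At 22 °C it had 130, 95.3 and 110 CPM on NCD and 118, 103 and 112 CPM on HFD. At 4 °C it had 121, 138 and 116 CPM on NCD and 98.3, 103 and 91.4 CPM on HFD. All libraries lay within 91.4 to 138 CPM, and the only simple comparison without overlap was that of the diets at 4 °C. No comparison was called. For cold, edgeR gave log2 differences of 0.16 on NCD (SE 0.12, adjusted p = 0.509) and -0.18 on HFD (SE 0.12, adjusted p = 0.357), whose 95% confidence intervals reach 0.42 and -0.45. For HFD it gave -0.01 at 22 °C (SE 0.12, adjusted p = 0.973) and -0.36 at 4 °C (SE 0.12, 1.28-fold lower, unadjusted p = 0.0132, adjusted p = 0.110). At 4 °C, groups without overlap were common, with 25.2% of all tested genes. Ucp3 is also a muscle gene, and the library with the highest muscle marker sum had the lowest Ucp3 level of its group on NCD at 22 °C (95.3 CPM) and on HFD at 4 °C (91.4 CPM), the middle one on HFD at 22 °C (112 CPM) and the highest one on NCD at 4 °C (138 CPM). The part of muscle content in the Ucp3 values was not tested.

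Ucp2 had 1 library that stood far apart. On NCD at 22 °C the libraries held 17.2, 79.7 and 14.7 CPM, so that replicate 2 was 5.42-fold above the lowest, with 1371 counts. On NCD at 4 °C they held 20.7, 28.5 and 21.3 CPM, and on HFD at 22 °C 24.99, 25.6 and 15.8 CPM. On HFD at 4 °C they held 49.97, 23.3 and 41.1 CPM. All groups overlapped and none of the comparisons was called. The log2 difference for cold was -0.66 on NCD (SE 0.55, adjusted p = 0.556) and 0.79 on HFD (SE 0.55, adjusted p = 0.381) in edgeR, and that for HFD was -0.75 at 22 °C (SE 0.55, adjusted p = 0.511) and 0.70 at 4 °C (SE 0.55, adjusted p = 0.503). The intervals were wide, from -1.86 to 0.54 for cold on NCD and from -0.41 to 1.99 for cold on HFD. The library that stood apart decided the sign on NCD. Without NCD 22 °C replicate 2, cold on NCD gave 0.56 (adjusted p = 0.411) and HFD at 22 °C gave 0.47 (adjusted p = 0.496), and the mean cold effect rose from 0.07 to 0.68 (adjusted p = 0.0520).

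Markers of other cell types were set beside Ucp2. The high NCD library was also the one with the highest muscle marker sum of its group, 19090 CPM against 3140 and 3974 CPM. In the other groups, the muscle-rich library had the highest Ucp2 level on NCD at 4 °C (28.5 CPM), the middle one on HFD at 4 °C (41.1 CPM) and the lowest one on HFD at 22 °C (15.8 CPM). On HFD at 4 °C, the libraries with 49.97, 23.3 and 41.1 CPM of Ucp2 had summed levels of 12 macrophage markers of 247, 181 and 397 CPM, and over all other libraries this sum ran from 139 to 268 CPM. The high NCD library had the lowest macrophage sum of its group, 185 CPM against 229 and 195 CPM. On NCD at 4 °C and on HFD at 22 °C, the library with the highest macrophage sum (186 and 268 CPM) also had the highest Ucp2 level. The part of muscle or macrophage content in the Ucp2 values was not tested.

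**Figure D2:**
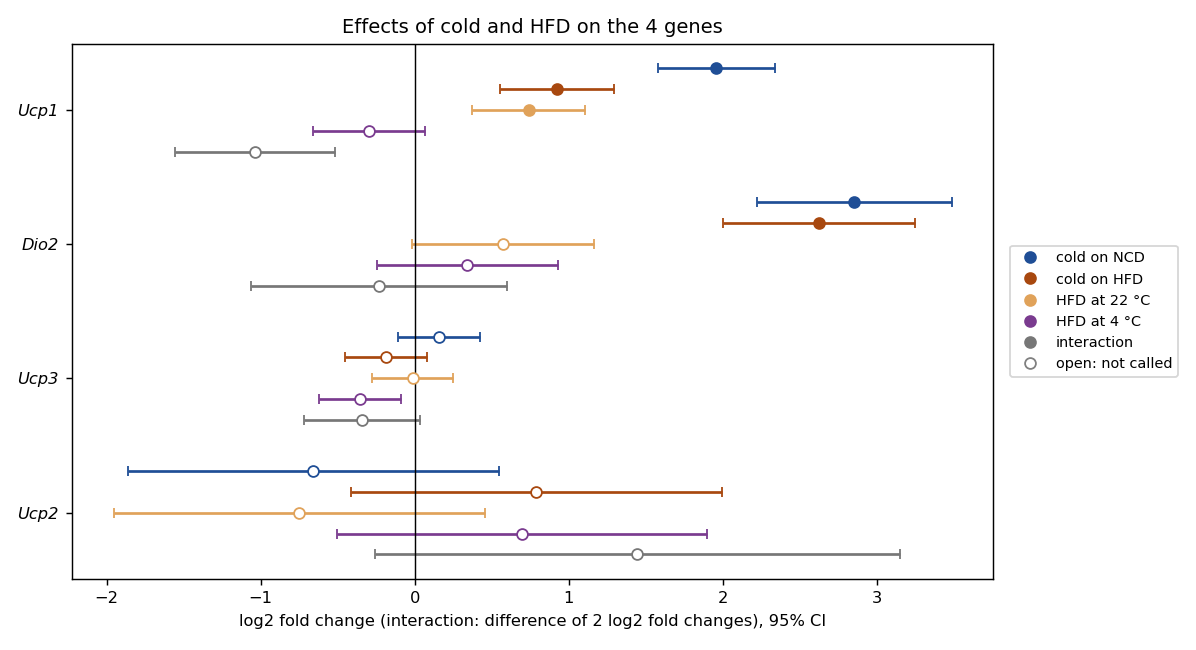
Log2 fold change (x axis) with its 95% confidence interval for cold on each diet, HFD at each temperature and their interaction, by gene (y axis), from edgeR's quasi-likelihood fit on 12 libraries. Filled points passed the call, which holds for Ucp1 in 3 comparisons and Dio2 in 2, while the intervals of Ucp2 are wider than those of Ucp3, which hold 0 except for HFD at 4 °C.

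Per length of the longest coding transcript (1636 bases for Ucp1, 3988 for Ucp2, 2448 for Ucp3 and 5815 for Dio2), the order of levels at 22 °C was Ucp1, Ucp3, Dio2 and Ucp2. On NCD at 22 °C their mean levels were 2569, 45.7, 11.9 and 9.32 CPM per kilobase, and Ucp2 overlapped Dio2 there because of its high library. In the cold, Dio2 took the place of Ucp3, with mean levels of 86.1 against 51.0 CPM per kilobase on NCD and 109 against 39.9 on HFD. Within single libraries, the level of Ucp3 per kilobase was 1.87 to 4.30 times that of Dio2 at 22 °C and 0.351 to 0.788 times that of Dio2 at 4 °C. Ucp1 stood above Ucp3 per kilobase by 54.4 to 59.5 times on NCD at 22 °C and by 167 to 232 times on NCD at 4 °C.

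Ratios between members of a library do not depend on the normalization between libraries, and they show how unequally the members moved. All 6 pairs were compared over cold within diets and over HFD within temperatures, with two-sided exact permutation tests of the log2 ratio and adjustment over the 12 tests. The ratio of Ucp1 to Dio2 fell by 1.31 on the log2 scale with cold (0.405-fold, p = 0.01, adjusted p = 0.024, exact permutation). There were 49.98 to 72.0 Ucp1 counts per Dio2 count on NCD at 22 °C and 21.9 to 51.5 on NCD at 4 °C, with an overlap. On HFD there were 42.1 to 92.7 at 22 °C and 17.4 to 23.5 at 4 °C, without an overlap. The difference was -0.86 on NCD and -1.75 on HFD. Dio2 thus rose more than Ucp1 in fold.

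The ratio of Ucp3 to Dio2 fell by 2.76 with cold (p = 0.005, adjusted p = 0.015, exact permutation), and the differences were -2.66 on NCD and -2.85 on HFD. It was also lower on HFD than on NCD, with a mean difference of -0.65 (0.636-fold, p = 0.005, adjusted p = 0.015, exact permutation), and the differences were -0.55 at 22 °C and -0.75 at 4 °C. This is the only pair for which HFD passed adjustment, although HFD was called for neither gene alone. Its value for p is the smallest the 400 permutations allow. With libraries exchanged within batches only, the adjusted p was 0.0333, and with any single library left out it did not exceed 0.048. At 22 °C the HFD libraries held 0.785 to 1.37 Ucp3 counts per Dio2 count and the NCD libraries 1.37 to 1.81, without an overlap. At 4 °C they held 0.148 to 0.159 and 0.197 to 0.332.

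The ratio of Ucp1 to Ucp3 rose with cold by 1.45 (2.73-fold, adjusted p = 0.015, exact permutation), by 1.79 on NCD and 1.11 on HFD. For HFD it gave 0.40 (adjusted p = 0.0686, exact permutation), made up of 0.74 at 22 °C and 0.06 at 4 °C. The ratio of Ucp2 to Dio2 fell by 2.49 with cold (adjusted p = 0.015, exact permutation). The cold value for Ucp1 to Ucp2 was 1.18 (adjusted p = 0.0686, exact permutation) and that for Ucp2 to Ucp3 was 0.27 (adjusted p = 0.775, exact permutation). Without NCD 22 °C replicate 2, the library with the high Ucp2 level, the first was 0.76 (adjusted p = 0.113, exact permutation). The second was 0.71 and passed there (adjusted p = 0.0343, exact permutation), as did the HFD value of Ucp2 to Ucp3 (0.78, adjusted p = 0.0343). With all 12 libraries, the 5 tests that passed concern the cold effect for Dio2 against Ucp2, Ucp3 and Ucp1 and for Ucp1 against Ucp3, and the diet difference of Ucp3 against Dio2.

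**Figure D3:**
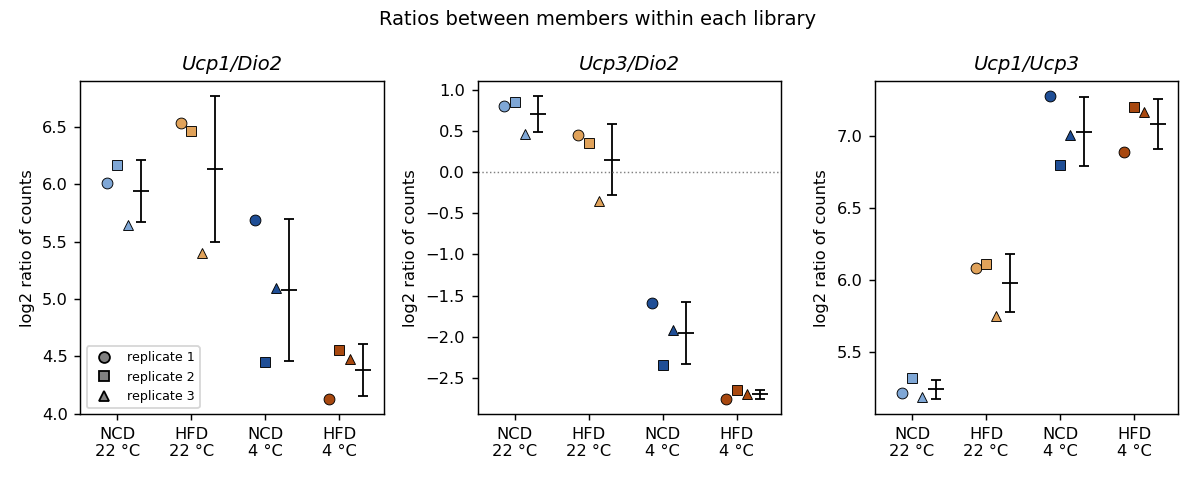
Log2 ratio of counts (y axis) of Ucp1 to Dio2, Ucp3 to Dio2 and Ucp1 to Ucp3 in each library by group (x axis), with mean ± SD (n = 3) in black and point shapes for replicate numbers. The Ucp3 to Dio2 ratio crosses 1 (dotted line at 0) in the HFD group at 22 °C and lies below it in all cold libraries.

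The genes around the members were looked at because shared reads or a shared region could touch their values. The labels and methods do not state whether strand was used in counting, so genes that overlap cannot be fully told apart. Ucp3 overlaps the antisense gene Gm10603 over 1857 bases, which had group means of 5.43 to 6.73 CPM. Ucp2 overlaps Dnajb13 over 305 bases, with means of 0.903 to 1.83 CPM and a call for cold on HFD (0.91, adjusted p = 0.0485 in edgeR). Dio2 overlaps the divergent lncRNA Gm26512 over 238 bases, with means of 1.84 to 2.51 CPM. These levels were low beside those of the members. Ucp1 overlaps no annotated gene.

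Tbc1d9, which codes for a TBC domain protein and ends 17418 bases upstream of Ucp1 on the same strand, was called in all 4 simple comparisons. Its means were 5.62 CPM on NCD and 11.4 CPM on HFD at 22 °C, and 12.9 CPM on NCD and 22.8 CPM on HFD at 4 °C. Cold raised it by 1.20 on NCD and by 1.00 on HFD, and HFD raised it by 1.02 at 22 °C and by 0.82 at 4 °C on the log2 scale, with adjusted p-values from 0.000629 to 0.00516 in edgeR. For HFD at 4 °C, where Tbc1d9 rose, Ucp1 had a log2 difference of -0.30 that was not called. On the other side of Ucp1, Elmod2, which lies 14180 bases away, gave log2 differences between -0.16 and 0.19 and was not called. C2cd3, 2838 bases upstream of Ucp3, was not called either.

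The genes whose pattern was most like that of a member were found by Pearson's correlation of log2 CPM over the 12 libraries among 13195 other protein-coding genes. The libraries share groups and batches, so that the values only describe likeness. For Ucp1 they included Lipa, the lysosomal acid lipase (r = 0.978), Acsl1, which activates long-chain fatty acids (r = 0.972), Prelid3b (r = 0.966) and Pank1, a pantothenate kinase of coenzyme A synthesis (r = 0.966). Like Ucp1, Acsl1, Prelid3b and Pank1 had their highest mean on NCD at 4 °C, whereas Lipa had it on HFD at 4 °C (395 against 385 CPM on NCD at 4 °C). The means of Acsl1 were 2877 and 4998 CPM on NCD and 3494 and 4335 CPM on HFD at 22 °C and 4 °C. For Dio2 they were Cpne5 (r = 0.980), Noct, which codes for the deadenylase-like protein nocturnin (r = 0.978), the metalloprotease gene Adam12 (r = 0.970), the kinase gene Mapkapk2 (r = 0.969) and Usp33 (r = 0.969). Like Dio2, all 5 of these had their highest mean on HFD at 4 °C, and Cpne5 went from 0.897 to 10.1 CPM on NCD and from 1.82 to 20.5 CPM on HFD.

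For Ucp3 the nearest genes were Ccnb1ip1 (r = 0.837), Prdm11, Pdcl3, Ss18l1 and Bsdc1 (r = 0.807), and for Ucp2 Zc2hc1a (r = 0.836), Wdr43, Pitx3, Scn3b and Sim2 (r = 0.753). Their likeness was weaker, and Pitx3 was near the floor of detection with at most 0.560 CPM as a group mean. Among the members themselves, Ucp1 and Dio2 had r = 0.895, and Ucp2 and Ucp3 had r = -0.593, again as descriptions over 12 libraries. The likeness depends on the measure, since by Spearman's correlation Usp33 was only the 471st gene for Dio2 (rho = 0.804) and Zc2hc1a the 254th for Ucp2 (rho = 0.594).

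The thyroid hormone list holds genes that make, carry, degrade or answer to T3, and 26 of its 31 genes were tested. Dio1, the other activating deiodinase, had 0 counts in all 12 libraries, which allows up to 3 counts in each. Cold on NCD called 3 of the 26 (2 higher, 1 lower) and cold on HFD 8 (4 higher, 4 lower), and HFD called 1 at 22 °C and 3 at 4 °C, all lower. Over all tested genes the shares called were 6.27%, 9.58%, 2.09% and 4.75%, in the same order. The median log2 difference of the list was -0.02 and 0.04 for cold on NCD and on HFD, against -0.01 and -0.04 over all tested genes.

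Among the proteins that set how long DIO2 lasts, Usp33, a deubiquitinase that acts on it, rose with cold by 0.97 on NCD (SE 0.09, adjusted p = 0.000298) and by 1.12 on HFD (SE 0.09, adjusted p = 0.000168) in edgeR. Its means were 69.3 and 136 CPM on NCD and 70.4 and 153 CPM on HFD, at 22 °C and 4 °C. The second deubiquitinase, Usp20, and the ubiquitin ligase genes Wsb1 and March6, named after their values were seen, were not called in any cold comparison, with log2 differences of -0.02 to 0.31. Of the selenocysteine machinery, also named afterwards, cold on HFD called Eefsec (0.79, adjusted p = 0.0369 in edgeR) and Sepsecs (0.52, adjusted p = 0.0246) higher and Pstk (-0.58, adjusted p = 0.00986) lower. None of the 3 was called for cold on NCD.

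The receptors did not pass both thresholds for the mean cold effect. It was -0.30 for Thra (SE 0.14, adjusted p = 0.158 in edgeR) and -0.31 for Thrb (SE 0.09, adjusted p = 0.0227, below the minimum fold). The receptor coactivator Ncoa1 rose with cold by 0.59 on NCD and 0.97 on HFD (adjusted p = 0.0247 and 0.00165 in edgeR). Its call on NCD was lost without any 1 of the NCD 22 °C libraries or of NCD 4 °C replicates 1 and 2, with adjusted p-values of up to 0.0821. Of the genes known to answer to T3, Hr, which codes for the corepressor hairless, fell by 1.08 with cold on NCD and fell by 1.30 on HFD (adjusted p = 0.00935 and 0.00255). Thrsp, which codes for a lipogenic nuclear protein, fell by 1.98 with cold on HFD (SE 0.36, adjusted p = 0.00656) and fell by 2.72 with HFD at 4 °C (SE 0.37, adjusted p = 0.00294). Its means were 2566 and 2088 CPM on NCD and 1257 and 318 CPM on HFD, at 22 °C and 4 °C. Me1, malic enzyme, fell by 1.48 with HFD at 22 °C and fell by 2.10 at 4 °C on the log2 scale (adjusted p = 0.00342 and 0.000428). Thrsp and Me1 are genes of fatty acid synthesis as well. Klf9, which also answers to T3 and was named after its values were seen, was higher in the cold on NCD, where Hr fell. Its mean there was 157 CPM (132 to 187) at 22 °C and 240 CPM (197 to 287) at 4 °C. On HFD its means were 190 and 202 CPM, and it was not called for cold on either diet.

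The list of carriers related to the uncoupling proteins held 8 genes, all tested. It includes Slc25a14 and Slc25a27, which are also called UCP5 and UCP4, and Slc25a30. For the mean cold effect these gave -0.10 (SE 0.20, adjusted p = 0.759), -0.39 (SE 0.24, adjusted p = 0.290) and 0.28 (SE 0.20, adjusted p = 0.354) in edgeR, and none was called. Slc25a14 and Slc25a27 were low, with group means of 1.40 to 2.82 CPM. Slc25a10, the dicarboxylate carrier, fell by 1.92 with cold on NCD (SE 0.35, adjusted p = 0.00855) and fell by 2.58 with HFD at 22 °C (SE 0.36, adjusted p = 0.00534). Its mean was 71.3 CPM on NCD at 22 °C and 11.5 to 18.8 CPM in the other 3 groups. Slc25a11, the oxoglutarate carrier, fell by 0.54 with HFD at 4 °C (adjusted p = 0.0325), a call lost when 1 library was left out in 7 of 12 cases (NCD 4 °C replicates 1, 2 and 3, NCD 22 °C replicates 2 and 3, HFD 22 °C replicate 2 and HFD 4 °C replicate 1), with values down to -0.37 (adjusted p = 0.103) without the last of these. Each of these 3 comparisons called 1 of the 8 carriers, and none was called for cold on HFD. No carrier was called higher in any of the 4 simple comparisons. Of all tested genes, cold called 6.27% on NCD and 9.58% on HFD. The diet called 2.09% of them in the warm and 4.75% in the cold. With 8 carriers, counts of 0 or 1 are too small to be set apart from these shares. Slc25a20, the carnitine and acylcarnitine carrier, had means of 640 CPM at 22 °C and 981 CPM at 4 °C on NCD, without an overlap, as for 27.8% of all tested genes. It missed the threshold there (0.62, SE 0.17, adjusted p = 0.0533 in edgeR).

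The list of genes that control Ucp1 (receptors, kinases and transcription factors) had 21 of 23 genes tested. Cold on NCD called 2 and cold on HFD 1, all higher, and HFD called 0 at either temperature, against 6.27%, 9.58%, 2.09% and 4.75% of all tested genes in these 4 comparisons. Adrb3, the β3-adrenergic receptor, gave 0.37 for the mean cold effect (SE 0.22, adjusted p = 0.275 in edgeR), and its means were 147 and 264 CPM on NCD and 256 and 237 CPM on HFD. Ppargc1a, the coactivator PGC-1α, rose with cold on NCD by 2.25 (SE 0.50, adjusted p = 0.0202), from 57.8 ± 11.1 to 275 ± 200 CPM (SD, n = 3), a spread of 74.8 to 475 CPM in the cold. Without NCD 4 °C replicate 2, the muscle-rich library of its group, the difference was 1.59 (adjusted p = 0.0723). The call was also lost without any 1 of the NCD 22 °C libraries (adjusted p-values of up to 0.0837). Without the muscle-rich library of each group the difference was 1.49 (adjusted p = 0.165 in edgeR). On HFD its means were 80.0 and 191 CPM, which was not called, and the mean cold effect of 1.75 was (adjusted p = 0.00447). Esrra rose with cold on NCD by 0.68 (adjusted p = 0.0135) and Zfp516 with cold on HFD by 0.52 (adjusted p = 0.0182). The call of Esrra was lost without NCD 22 °C replicate 1 or 2 (adjusted p = 0.0614 and 0.0547), and that of Zfp516 without HFD 22 °C replicate 2 or 3 or HFD 4 °C replicate 1 or 3 (adjusted p-values of up to 0.0563). The median log2 difference of the list for cold on NCD was 0.27, against -0.01 over all tested genes. For cold on HFD both medians were -0.04. For HFD the list gave 0.0004 at 22 °C and -0.15 at 4 °C, against 0.03 and 0.02 over all tested genes.

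The list of fatty acid genes, many of them PPARα targets as Ucp3 is known to be, had all 18 genes tested. Cold called 7 on NCD and 5 on HFD, all higher, and HFD called 2 at 22 °C, both higher, and 4 at 4 °C, of which 3 were higher, against 6.27%, 9.58%, 2.09% and 4.75% of all tested genes. The median log2 difference of the list was 0.47 for cold on NCD but 0.007 for cold on HFD, against -0.01 and -0.04 over all tested genes. For HFD it was 0.29 at 22 °C and -0.10 at 4 °C, against 0.03 and 0.02. Fabp3, a fatty acid binding protein, rose with cold on NCD by 1.78 (SE 0.18, adjusted p = 0.000498 in edgeR) and with HFD at 22 °C by 1.49 (SE 0.18, adjusted p = 0.00226), with means of 343 and 1175 CPM on NCD and 964 and 2055 CPM on HFD. Acot1 rose with cold by 1.59 on NCD and 2.498 on HFD (adjusted p = 0.0281 and 0.00299), and Lpl, lipoprotein lipase, by 1.80 on HFD (adjusted p = 0.000168). Cpt1a rose with HFD by 0.84 at 22 °C and 1.26 at 4 °C (adjusted p = 0.0269 and 0.00245), where Acot2 rose by 1.47 (adjusted p = 0.00492). Pnpla2, which codes for the lipase ATGL, fell by 0.66 with HFD at 4 °C (adjusted p = 0.0386). This call was lost when 1 library was left out in 8 of 12 cases (NCD 4 °C replicates 1, 2 and 3, NCD 22 °C replicates 2 and 3, HFD 22 °C replicate 2 and HFD 4 °C replicates 1 and 3), with adjusted p-values of up to 0.133. The call of Acot1 on NCD was lost without NCD 22 °C replicate 1 or 3 or NCD 4 °C replicate 2 or 3 (adjusted p-values of up to 0.111), and that of Cpt1a at 22 °C without any 1 of the NCD 22 °C libraries or HFD 22 °C replicate 1 or 2 (up to 0.145). Cpt1b passed the adjusted p for the mean cold effect but not the minimum fold (0.48, SE 0.10, adjusted p = 0.00464), and Pdk4 gave 0.83 (SE 0.30, adjusted p = 0.0755). Ucp3 was called in none of the comparisons in which these genes were.

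**Figure D4:**
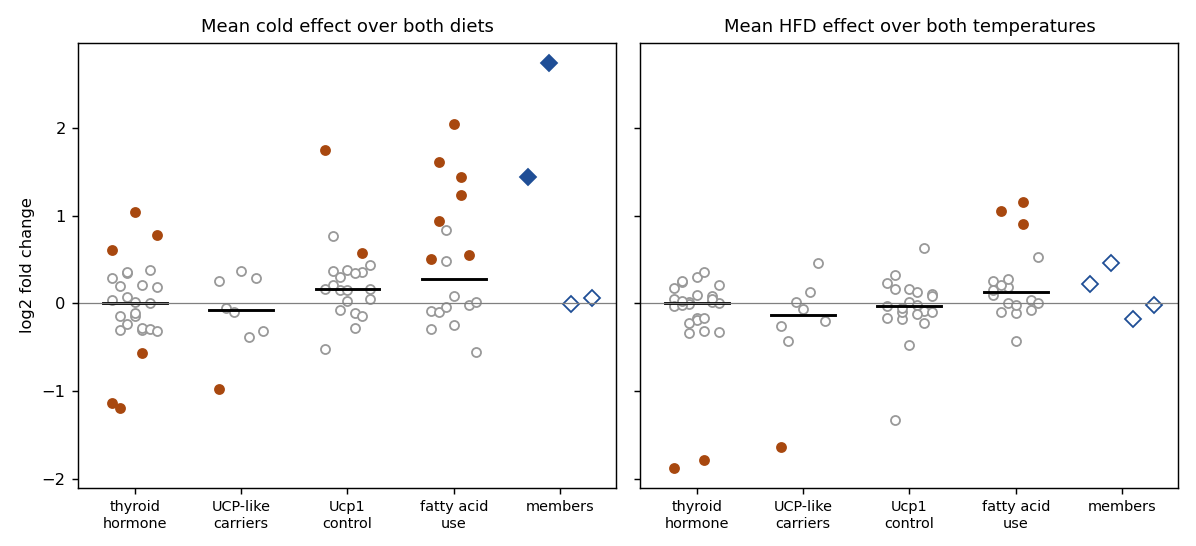
Log2 fold change (y axis) of each tested gene of the 4 lists and of the members (x axis) for the mean cold effect and the mean HFD effect. Filled points passed the call, black lines are list medians, and the members are diamonds in the order Ucp1, Dio2, Ucp3 and Ucp2, of which Ucp1 (1.44) and Dio2 (2.74) were called for cold and none for HFD.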

How the data were processed

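Total RNA of 12 iBAT samples, depleted of rRNA, was read from both ends. The authors trimmed with cutadapt, mapped with salmon to GENCODE M22 combined with RNAcentral 5 (GRCm38), and deposited estimated counts as whole numbers summed to genes, with no normalization. The library kit's strand setting is not given in the sources used here. Salmon shares reads among similar transcripts, so that counts of overlapping or related genes are estimates.

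Groups and batches followed the labels. Counts were rounded, filtered with edgeR's filterByExpr (minimum count 10), scaled with TMM and fitted with 4 group means in edgeR 4.0.16 (R 4.3.3, limma 3.58.1), with glmQLFTest and Benjamini-Hochberg adjustment over 16737 genes. Ratios and permutations used Python 3.11.15 with numpy 2.4.6 and scipy 1.17.1. Coordinates came from GENCODE M21. Totals of 15136861 to 46740702 counts gave the members at least 276 counts per library, and the limit of 3 counts for a value of 0 covers counting error only. The labels do not say whether libraries came from separate mice, so that p-values measure only the spread between libraries. The edgeR fit was tested on simulated counts that held a cold effect but no effect of diet, no interaction, no batch effect and no muscle-rich libraries. How well it finds diet effects or interactions was therefore not tested.

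The 4 members, the 4 gene lists, the 6 marker lists and the tests were chosen with earlier results of these data known. Named were the members, 12 genes of the lists fixed by name, up to 2 called genes with the largest rise and fall per list and comparison, the 5 genes most like each member, and neighbours. Some genes that this rule names are not reported here. Alternatives were DESeq2 1.42.0 (Wald test, size factors), other filters, batch as a term, batch 1 alone, the replicate number as a block, only the 6 libraries compared, glmTreat, no minimum fold, each library left out, and, added after seeing the data, the library of highest muscle marker level of each group left out. Deviations from the group mean were correlated between same-numbered libraries of both temperatures on each diet (r = 0.219 to 0.456 on NCD and 0.155 to 0.386 on HFD), so that the number may pair them within diet. This pairing rests on the correlations alone. Between diets the same check gave -0.211 to 0.365. The highest value on each diet, 0.456 on NCD and 0.386 on HFD, came from the muscle-rich libraries, which share a number within diet. Muscle-rich libraries of different diets, whose numbers differ, gave 0.225 to 0.418. Replicate 3 was also a batch of its own, and pairing, muscle content and batch were not told apart.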

Additional observations from a re-analysis of the deposited data

How the results depend on the processing

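Over 28 comparisons of the members, 600 of 656 alternative values kept direction and call, 33 changed sign, 20 were no longer called and 3 became called. All sign changes concerned values of Ucp2, Ucp3 or the Dio2 interaction that were not called. The cold calls of Dio2 and of Ucp1 on NCD held in every alternative run. All fold changes in this part are log2 differences, and the cause of a change was not tested unless it follows from the setting itself, as with fewer libraries. Cold on HFD gave Ucp1 0.83 with batch 1 alone, 0.92 with glmTreat, which tests against the minimum fold, and 0.83 without the library of highest muscle marker level of each group (adjusted p = 0.101, 0.108 and 0.0773). For Ucp1 and HFD at 22 °C the call was lost with batch 1 alone (0.81), DESeq2's size factors in edgeR (0.72), glmTreat (0.74), only the 6 libraries compared (0.75) and without the muscle-rich libraries (0.77). With the replicate number as a block it was 0.74, both as an additive term (adjusted p = 0.0551) and within temperature (0.74, adjusted p = 0.0949). The block within diet changed no call of a member for cold or the interaction. DESeq2's Wald test called the Ucp1 interaction (-1.02).

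Without the muscle-rich libraries, Ucp2 gave 0.40 for cold on NCD, 0.67 for HFD at 22 °C and 0.74 for the mean HFD effect, where its other reversals were 0.023 with batch as a term, 0.13 with the replicate block and 0.16 with the block within temperature. The mean cold effect of Ucp2 was -0.22 in batch 1 alone. Ucp3 gave -0.019 for cold on NCD without the muscle-rich libraries, and its mean cold effect was 0.035 in batch 1 alone, 0.0024 with a mean of at least 10 counts and 0.014 without a filter. Without the muscle-rich libraries Dio2 was called for HFD at 4 °C (0.71) and its interaction was 0.60.

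The number of genes called moved by more than 1.5 times in these cases. For cold on HFD (1603) it was 416 with batch 1 alone, 357 with glmTreat, 731 without the muscle-rich libraries and 855 with only 6 libraries. For cold on NCD (1049) it was 352, 175 and 281 with the first 3 of these. For HFD at 22 °C (349) it was 42, 70 and 72 with the same and 828 with DESeq2. For HFD at 4 °C (795) it was 53, 155 and 384 with the same, 1321 with DESeq2, 149 with only 6 libraries and 482 with the replicate block within temperature. For the interaction (0) it was 62 with DESeq2, 3 without the muscle-rich libraries, 27 without a filter, 1 with the replicate block and 2 with the block within diet. The mean cold effect (2123) had 567 with glmTreat and 3539 without a minimum fold, and the mean HFD effect (1305) had 539 with batch 1 alone, 262 with glmTreat and 2262 without a minimum fold. For the mean cold effect, glmTreat called 3 thyroid, 0 carrier and 1 Ucp1 control genes, and no minimum fold called 11, 2 and 4. For the mean HFD effect, no minimum fold called 5 thyroid and 2 carrier genes. The Ucp1 control list (0 called) had 1 with DESeq2, batch as a term, no filter, no minimum fold or the replicate block, and 2 with the block within temperature.

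Of the ratios, the 5 that passed could not pass without the muscle-rich libraries, where 36 permutations allow no p below 0.0556. Their values were 1.45 for Ucp1 to Ucp3, -1.30 for Ucp1 to Dio2, -2.26 for Ucp2 to Dio2 and -2.75 for Ucp3 to Dio2 with cold, and -0.59 for Ucp3 to Dio2 with HFD. The HFD values of Ucp1 to Ucp2 (-0.46) and Ucp2 to Dio2 (0.27) changed sign there.

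Leaving out 1 library at a time gave 0.61 to 0.84 for Ucp1 and HFD at 22 °C. For Ucp2 it gave -1.04 to 0.56 for cold on NCD, -1.17 to 0.47 for HFD at 22 °C, -0.11 to 0.68 for the mean cold effect and -0.24 to 0.58 for the mean HFD effect, with the highest value without NCD 22 °C replicate 2 in each. For Ucp3 it gave -0.12 to 0.077 for HFD at 22 °C and -0.062 to 0.067 for the mean cold effect. For Dio2 it gave -0.40 to 0.087 for the interaction and 0.31 to 0.62 for the mean HFD effect, which was called without NCD 4 °C replicate 2. Numbers of called genes ran from 490 to 1112 for cold on NCD, 1013 to 1672 for cold on HFD, 117 to 369 for HFD at 22 °C, 239 to 992 for HFD at 4 °C and 0 to 22 for the interaction. The Ucp1 control list ran from 0 to 1 and the carriers from 1 to 2 for the mean HFD effect. Ratios ran from -0.36 to 0.28 (Ucp1 to Ucp2, HFD), 0.76 to 1.40 (Ucp1 to Ucp2, cold), 0.34 to 0.46 (Ucp1 to Ucp3, HFD), -0.60 to 0.16 (Ucp2 to Dio2, HFD), 0.11 to 0.78 (Ucp2 to Ucp3, HFD) and 0.047 to 0.71 (Ucp2 to Ucp3, cold). The mean cold effect of the carrier Slc25a14, not called, ran from -0.21 to 0.017. Of the calls named for list genes, batch 1 alone lost those of Fabp3 and Me1 for HFD at 22 °C, Thrsp for both comparisons, Acot2 for HFD at 4 °C and Hr for cold on NCD (adjusted p-values of 0.0610, 0.0846, 0.0615, 0.0954, 0.1001 and 0.109), and the muscle-rich libraries left out lost those of Hr (0.0701) and Fabp3 (0.0506). Batch 1 alone also lost those of Acot1, Esrra and Ncoa1 for cold on NCD and Zfp516 for cold on HFD. It lost Cpt1a for HFD at 22 °C and Pnpla2 and Slc25a11 for HFD at 4 °C too (adjusted p from 0.0578 to 0.243 over these). The muscle-rich libraries left out also lost Esrra, Ncoa1 and Ppargc1a for cold on NCD, Zfp516 for cold on HFD, and Pnpla2 and Slc25a11 for HFD at 4 °C (0.0799 to 0.165).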
